A study of Homo sapiens with 11 samples.

Results

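The 4 parallel wells of cardiomyocytes collected on Day 30 of a long-term culture were compared with each other, to describe which genes and functions differed most between wells that were handled alike and which genes differed together. The 4 Day 30 libraries were selected by their labels out of 11 libraries of the series, and a gene was included when its mean over these 4 wells was at least 5 CPM (counts per 1000000 counts of the library), which held for 11847 of 19990 genes. All 4 wells came from the human induced pluripotent stem cell line WTC11 at passage 63 and from a single differentiation. The cells had been treated with CHIR99021, an inhibitor of GSK3 that activates WNT signalling, then with IWP2, an inhibitor of WNT secretion, and were kept in RPMI1640 with B27 containing insulin until collection. Further wells of the same differentiation, 3 at Day 60 and 4 at Day 113, are used only where named. Every well carried the same genotype and treatment, so the 4 wells form 1 group with no contrast between groups, and the spread between them does not extend to other differentiations or lines.

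Small-molecule activation and then inhibition of WNT signalling directs pluripotent cells through mesoderm to beating cardiomyocytes. The same route can leave other cells in the dish, among them derivatives of endoderm, fibroblast-like and epicardial cells, endothelial cells and epithelial cells, since endoderm and mesoderm arise next to each other from a shared precursor. Cardiomyocytes are known by their sarcomere proteins, endoderm on the hepatic path by secreted plasma proteins such as albumin, epithelial cells by keratins, claudins and E-cadherin, and stromal cells by fibrillar collagens and fibronectin.

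The promoters of 3 genes whose levels set the wells apart are shown first, because they represent the main patterns described here: ALB and AHSG were low in well 4 alone, and VTCN1 was low in wells 1 and 4. Sequences are RefSeq GRCh38.p14, 5′ to 3′ on the strand of the gene, from 250 bases before the annotated start through the first 30 transcribed bases. Capitals mark letters that match a searched motif.
ALB, chr4:73404037-73404316, plus strand: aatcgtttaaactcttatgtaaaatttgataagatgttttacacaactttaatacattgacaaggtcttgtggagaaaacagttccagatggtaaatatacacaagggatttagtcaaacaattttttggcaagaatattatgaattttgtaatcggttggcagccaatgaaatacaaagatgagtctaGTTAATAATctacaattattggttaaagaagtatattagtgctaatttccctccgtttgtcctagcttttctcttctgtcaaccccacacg
AHSG, chr3:186612810-186613089, plus strand: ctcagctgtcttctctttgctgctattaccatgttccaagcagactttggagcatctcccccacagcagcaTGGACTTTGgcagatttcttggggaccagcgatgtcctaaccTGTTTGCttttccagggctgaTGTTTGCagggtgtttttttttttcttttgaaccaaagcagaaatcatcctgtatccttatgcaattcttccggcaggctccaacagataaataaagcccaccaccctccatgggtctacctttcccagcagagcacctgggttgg
VTCN1, chr1:117210898-117211177, minus strand: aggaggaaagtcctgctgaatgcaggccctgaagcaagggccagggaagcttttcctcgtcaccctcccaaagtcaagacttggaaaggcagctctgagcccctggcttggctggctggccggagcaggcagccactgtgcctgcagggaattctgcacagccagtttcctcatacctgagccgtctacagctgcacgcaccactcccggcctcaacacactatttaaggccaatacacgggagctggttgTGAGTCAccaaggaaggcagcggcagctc

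The motifs were chosen after the expression values had been seen, and both strands were searched in windows of 300 bases, 250 before the start and 50 from it, so that each window runs on beyond the 280 bases shown. The HNF1 motif, searched as GTTAATNAT, holds the core bound by hepatocyte nuclear factor 1, and it lies at positions -61 to -53 from the ALB start. It was present in 33 of 9316 promoters of the genes examined (0.354%) and in 5 of the 15 promoters of the liver and endoderm genes described later, those of AFP, ALB, FGA, PLG and TM4SF4. The HNF4 motif CAAAGTCCA was in 22 promoters (0.236%) and, on the reverse strand, at positions -179 to -171 of AHSG. The forkhead motif TGTTTGC was in 245 promoters (2.63%) and in 4 of the 15 liver and endoderm promoters, with copies at positions -137 to -131 and -116 to -110 of AHSG. The AP-1 motif TGANTCA was in 389 promoters (4.18%), and in VTCN1 it spans positions 2 to 8, counted from 1 at the annotated start. Among 170 promoters of genes with a 2-fold range and wells 2 and 3 above wells 1 and 4, AP-1 letters were in 14 (8.24%). Of the same 170, forkhead letters were in 6 (3.53%), HNF1 letters in 1 and HNF4 letters in 0. AP-1 letters were in 2 of 11 epithelial and 0 of the 15 liver and endoderm promoters, sets too small to compare with 4.18%. A match describes the letters of these windows and not a bound site.

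The wells were closely matched in depth and in most genes. Depth, in units of 1000000 counts, was 26.6, 30.3, 29.8 and 29.5 in wells 1 to 4 (29.1 ± 1.68, SD, n = 4), and scaling factors from the trimmed mean of M-values (TMM) ran from 0.990 to 1.03. The transcripts that define the labelled cell type were abundant in every well. TNNT2, cardiac troponin T, measured 2866, 2564, 2248 and 3256 CPM in wells 1 to 4, MYH7, the beta myosin heavy chain, 18726, 14216, 11834 and 16547 CPM, and the Z-disc protein ACTN2 1870, 1579, 1353 and 2002 CPM. CPM is not corrected for gene length, so levels are compared here between wells and not between genes. The spread of a gene is given as its range, the difference between the highest and the lowest well in log2(CPM + 0.5), where a range of 1 is close to a 2-fold difference. The median range over the 11847 genes was 0.29, a median fold of 1.23 between the highest and the lowest well, and the median coefficient of variation over the wells was 9.16%. The common biological coefficient of variation, the spread that edgeR estimates beyond counting error, was 12.9% at Day 30, against 14.9% at Day 60 and 19.6% at Day 113. The counts of 10039 genes (84.7%) varied between wells by more than counting error, so passing that test alone says little about a gene.

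A gene was called variable when its range was at least 1 and its counts differed by more than counting error, at an adjusted p of at most 0.05 in a Poisson likelihood-ratio test with Benjamini-Hochberg adjustment. This held for 335 of 11847 genes (2.83%). With well 4 left out 177 genes were called and with well 2 left out 205, and 173 were called at a mean of at least 10 CPM. Ranges that correspond to a fold of at least 1.5 were found in 1500 genes, of 3 in 80, of 4 in 29 and of 8 in 2. Calls were more frequent at low levels, with 162 of 1562 genes (10.4%) at a mean of 5 to 10 CPM and 20 of 2136 (0.936%) at 100 CPM or more. At the boundary, PRRG3 and KANTR had ranges of 1.003 just inside it, and CRIPAK (0.99998) and FGFR3 (0.997) lay just outside. TCEAL7 (5.004 CPM) and EFR3B (5.006 CPM) were the nearest genes above the level threshold, and LOC105377771 (4.998 CPM) and CRK (4.997 CPM) the nearest below.

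**Figure D1:**
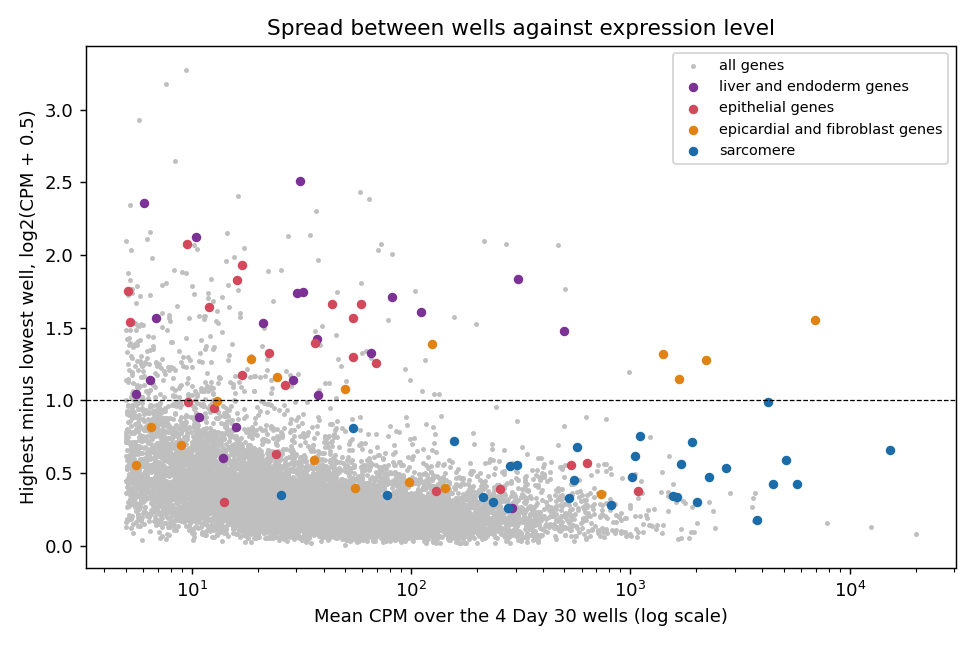
Range between the 4 Day 30 wells (y axis, highest minus lowest well, log2(CPM + 0.5)) against mean CPM over the wells (x axis, log scale), each point 1 gene, with members of 4 gene lists coloured and the dashed line at a range of 1. Of the liver and endoderm genes 17 of 21 and of the epithelial genes 15 of 24 lie above the line, and all 29 sarcomere genes lie below it. The median range is 0.29 over all genes and 0.53 at a mean of 5 to 10 CPM. XIST and Y-linked genes are not drawn.

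The variable genes divided the wells unevenly. Wells 2 and 3 were both above wells 1 and 4 in 230 of the 335 variable genes (68.7%), against 21.6% of all genes, and the opposite order held for 30 variable genes (8.96%) against 21.9% of all genes. Well 4 was the lowest in 225 variable genes (67.2%) and in 26.9% of all genes, and well 2 the highest in 202 (60.3%) and in 25.8% of all genes. The commonest order, highest in well 2 and lowest in well 4, held for 159 variable genes (47.5% of them, 1.34% of the genes tested), against 11.5% of all genes whatever their range, where it was also the commonest order. Wells 2 and 3 were the closest pair for differences of this size, with 15 genes at least 2-fold apart, and wells 2 and 4 the farthest, with 237. Wells 1 and 4 differed by that much in 46 genes, wells 1 and 3 in 77, wells 1 and 2 in 127 and wells 3 and 4 in 186. The first principal component of the variable genes, which held 78.7% of their variance, put wells 1 and 4 at 0.28 and 0.68 and wells 2 and 3 at -0.56 and -0.39. The second, with 13.8%, put well 1 at 0.81 and well 4 at -0.52. The genes that were not called gave the same arrangement on the first component, with 46.5% of their variance and wells 1 to 4 at 0.34, -0.54, -0.44 and 0.64.

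Of the 53 gene lists examined, the liver and endoderm list differed most between wells among the 45 lists with at least 5 genes at this level. Of its 21 genes, 17 were variable (81.0%), against 2.83% of all genes, and 20 were lowest in well 4. The median deviation of the list from the 4-well mean was 0.35, 0.49, 0.09 and -0.90 on the log2 scale in wells 1 to 4. The difference between wells was 1.39. The median over all genes differed by less than 0.01, a value that TMM scaling holds near 0. With the wells scaled by the sarcomere genes, as described later, the list differed by 1.65 and the median of all genes by 0.42. In bulk RNA, fewer cells of a type and less RNA per cell cannot be told apart, here and in each result that follows. The summed level of the list's 33 genes in the table was 2011, 2087, 1648 and 952 CPM, and no gene of the 33 was at 0 in every well. The result rests on well 4: without it the list difference was 0.42 and 1 of 21 genes was called, and without well 1, 2 or 3 it was 1.37, 1.250 and 1.43.

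**Figure D2:**
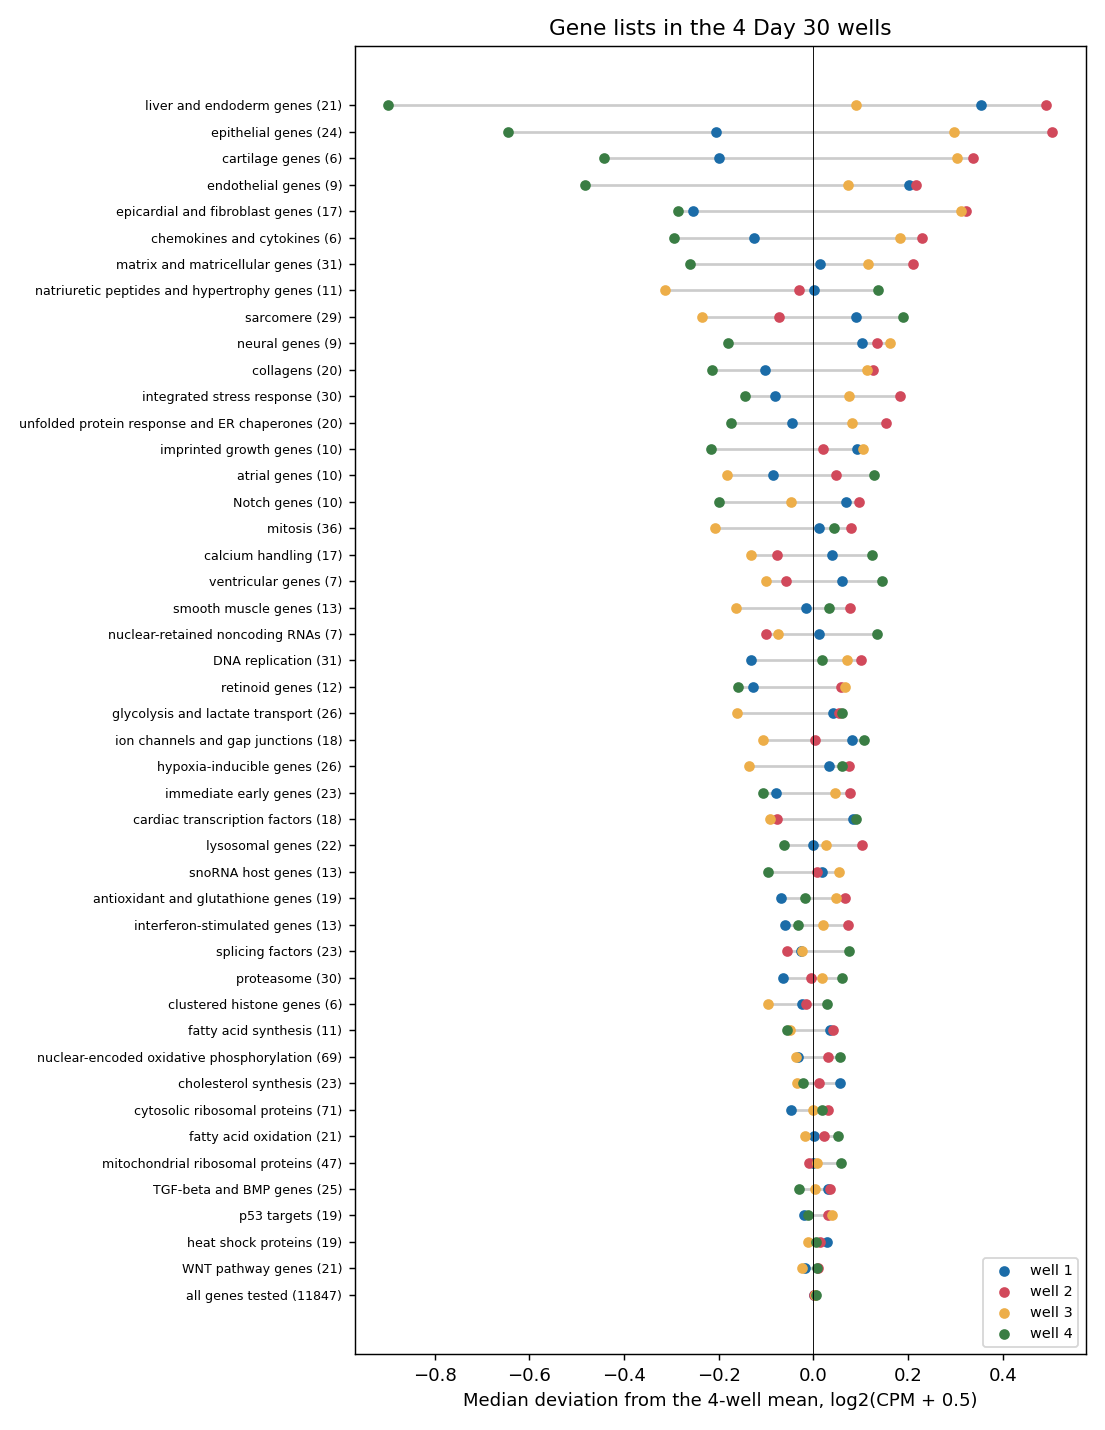
Median deviation from the 4-well mean of each gene list with at least 5 genes (x axis, log2(CPM + 0.5)), 1 row per list with the number of genes in parentheses and 1 coloured point per well, sorted by the difference between the highest and the lowest well. The liver and endoderm list (1.39) and the epithelial list (1.15) are at the top, and WNT pathway genes (0.03) are at the bottom above all genes tested.

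Among the carrier proteins of plasma, ALB, serum albumin, was measured at 408, 391, 312 and 114 CPM in wells 1 to 4 (306 ± 135, SD, n = 4), with its gene at chr4:73404287-73421482 in GRCh38.p14. Wells 1 to 3 lay close together and well 4 far below them, with a range of 1.83. AFP, the fetal counterpart of albumin, measured 593, 663, 496 and 237 CPM, a range of 1.48 with well 4 again apart. TF, transferrin, the iron carrier, measured 140, 143, 114 and 46.6 CPM, although exons of TF overlap those of SRPRB and the strand setting of the counting is not given in the sources used here. The matrix-binding plasma protein VTN, vitronectin, measured 45.9, 50.2, 34.2 and 18.4 CPM. These carriers shared 1 order, with well 4 lowest and wells 1 and 2 highest.

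The apolipoproteins, which package lipid for export, had the same order. APOB, the structural protein of low-density lipoprotein, measured 44.1, 39.3, 33.0 and 12.8 CPM, and APOA1, that of high-density lipoprotein, 80.1, 86.3, 61.6 and 34.2 CPM. APOC3, an inhibitor of lipoprotein lipase, measured 9.08, 9.95, 3.57 and 1.54 CPM, a range of 2.36. APOA2 measured 12.0, 16.1, 10.4 and 3.31 CPM. Well 4 was lowest for all 4 apolipoproteins, and well 3 lay between it and the other two.

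Among secreted inhibitors and clotting proteins, AHSG, the plasma glycoprotein fetuin-A, had the widest range of the list at 2.51, with 50.3, 38.2, 27.1 and 8.41 CPM and no overlap between the counting intervals of any wells. SERPINA1, alpha-1 antitrypsin, measured 92.5, 118, 79.7 and 35.8 CPM. The fibrinogen chains FGA (range 1.53), FGB (1.04) and FGG (1.57) were all lowest in well 4, as were AMBP (1.74), ITIH2 (1.14) and plasminogen, PLG (1.14). HNF4A, a transcription factor of the liver and gut, was the regulator among the variable genes, at 5.32, 7.43, 6.12 and 3.35 CPM. The 4 genes of the list that were not called were CDH17 (0.88), TM4SF4 (0.82), TTR (0.60) and GATA6 (0.26). GATA6, which is also a cardiac transcription factor, was highest in well 4, at 303, 265, 268 and 318 CPM.

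Epithelial genes differed second most, in another order of wells. Of 24 genes, 15 were variable (62.5%), and wells 2 and 3 were both above wells 1 and 4 in 22. The median deviation was -0.21, 0.50, 0.30 and -0.65 in wells 1 to 4, a difference of 1.15, and the summed level of the 27 genes in the table was 2867, 3883, 3267 and 2579 CPM. None of those 27 was at 0 in every well. Without well 4 the list difference was 0.75, and 9 of 24 genes were called.

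Among adhesion molecules of this list, EPCAM, an epithelial surface molecule, measured 45.4, 91.5, 70.7 and 28.5 CPM (59.0 ± 27.7, SD, n = 4). CDH1, E-cadherin of the adherens junction, measured 54.7, 94.9, 86.5 and 39.5 CPM. NECTIN4, a cell adhesion molecule, had the widest range at 2.08, with 5.74, 19.05, 8.97 and 4.13 CPM. Wells 2 and 3 were above wells 1 and 4 for each of these 3 genes, with a smaller gap for NECTIN4 in well 3. The tight junction claudins CLDN4 (22.7, 65.6, 65.4 and 20.3 CPM) and CLDN7 (9.73, 25.8, 21.9 and 6.90 CPM) had the same order, although CLDN7 overlaps ELP5. GRHL2, a transcription factor of epithelial junctions, measured 8.32, 28.1, 24.5 and 7.01 CPM, and ESRP1, an epithelial splicing regulator, 16.2, 21.003, 21.5 and 9.26 CPM. The membrane serine protease ST14 (range 1.32) and its inhibitor SPINT1 (1.30) were both variable. PRSS8 (1.11) and PRSS22 (1.75), further serine proteases, were also variable.

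Keratins of simple epithelium were split. KRT7 was variable, at 24.4, 58.0, 42.0 and 21.8 CPM, and KRT8 (0.38), KRT18 (0.55) and KRT19 (0.57) were not. KRT8 measured 1012, 1284, 1064 and 986 CPM, so its highest well was also well 2. LAD1 (0.30) and CLDN6 (0.38) had the smallest ranges of the list.

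**Figure D3:**
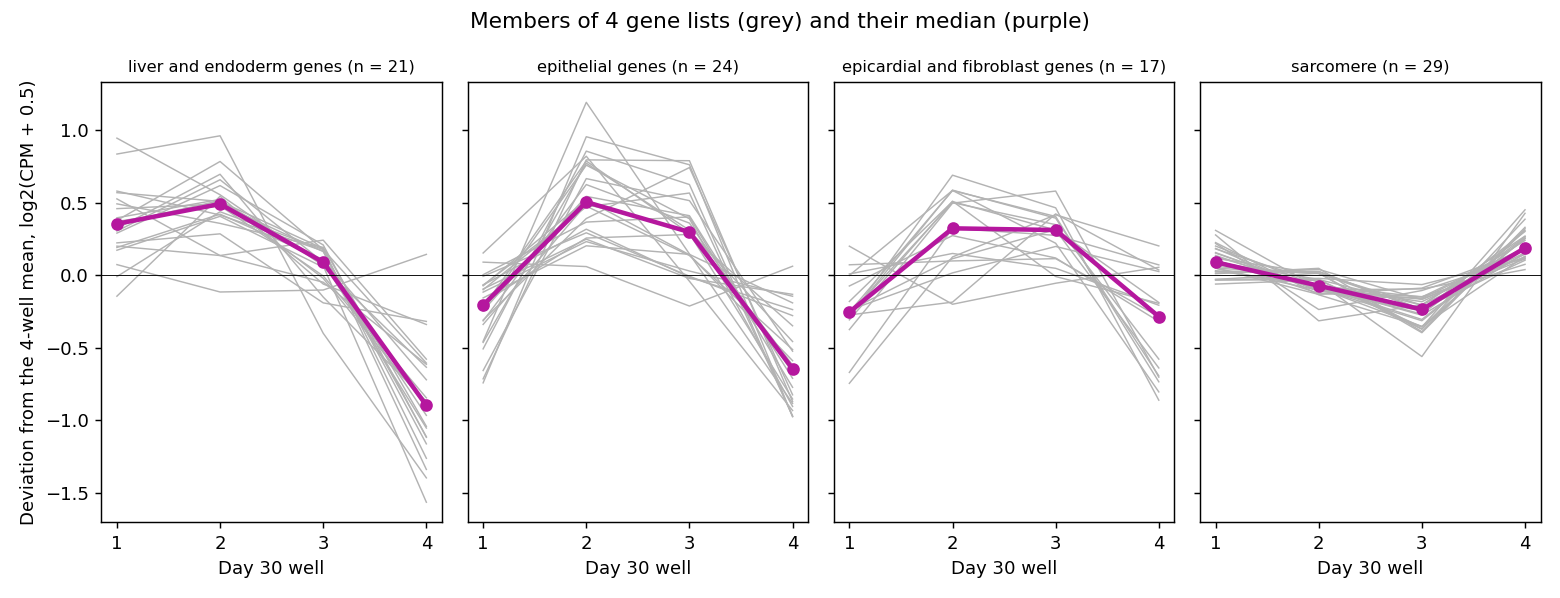
Deviation of each gene from its 4-well mean (y axis, log2(CPM + 0.5)) in Day 30 wells 1 to 4 (x axis) for the members of 4 lists, with grey lines linking the values of 1 gene and purple points the list median. Lines only join values of 1 gene, since wells have no order. Well 4 stands apart for liver and endoderm genes (median -0.90), wells 1 and 4 lie below wells 2 and 3 for epithelial and for epicardial and fibroblast genes, and sarcomere medians run the other way, from -0.24 in well 3 to 0.19 in well 4.

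Well 1 separated these groups. Among variable genes with the lowest value in well 4, well 1 was nearer to the mean of wells 2 and 3 in 94 and nearer to well 4 in 131. Of the 20 liver and endoderm genes lowest in well 4, 19 had well 1 nearer to wells 2 and 3, with a median of 1.31 between well 1 and well 4. Of the 22 such epithelial genes, 6 did, with a median of 0.38. Endothelial genes had the liver arrangement in 7 of the 7 that were lowest in well 4, and epicardial and fibroblast genes in 3 of 10. The comparison of well 1 positions was chosen after the list medians had been seen, and it has no test.

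**Figure D4:**
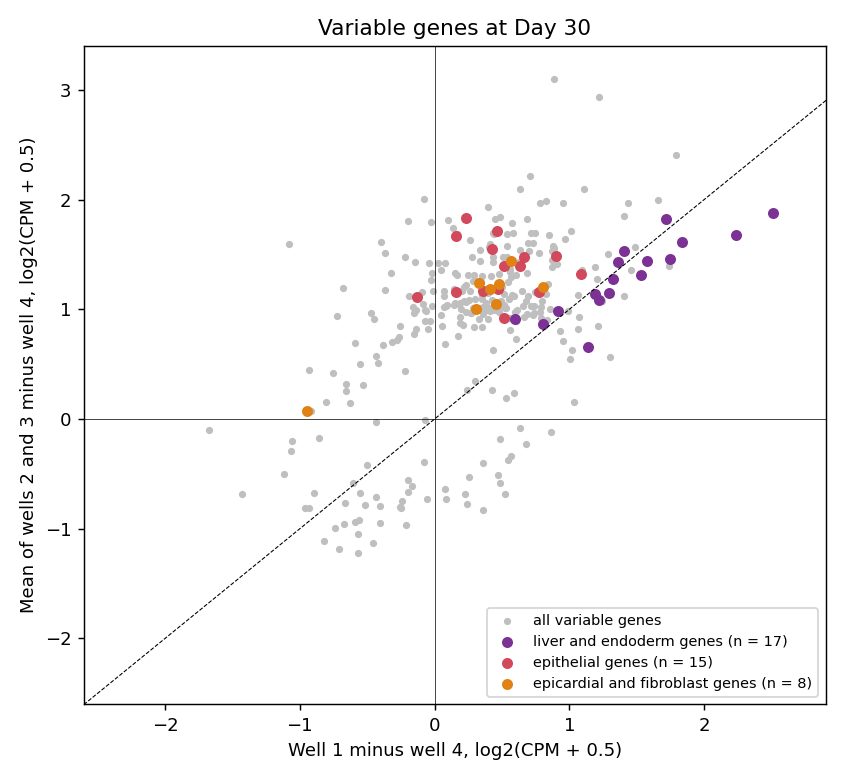
Well 1 minus well 4 (x axis) against the mean of wells 2 and 3 minus well 4 (y axis), both in log2(CPM + 0.5), for the variable genes at Day 30, with the members of 3 lists coloured and the dashed line where both differences are equal. Most of the 17 liver and endoderm genes lie close to the dashed line or right of it, with HNF4A the farthest to its left, and the 15 epithelial genes lie to the left.

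Ratios within a well, chosen after the values had been seen, express the same separation. The log2 ratio of TF to ALB was -1.54, -1.45, -1.46 and -1.29 in wells 1 to 4 (-1.44 ± 0.11, SD, n = 4). The log2 ratio of ITGB6 to VTCN1, a pair of genes high in wells 2 and 3, was 0.15, 0.18, 0.03 and 0.23 (0.15 ± 0.08, SD, n = 4). ALB to VTCN1 was 3.69, 1.89, 2.01 and 2.58, with a range of 1.80. TF is the gene nearest to ALB in profile, so their level ratio follows from that choice. Other ratios within the groups were less level: ALB to AFP was -0.54, -0.76, -0.67 and -1.05 (range 0.51), and GABRP to VTCN1 had a range of 0.38. The ratio across the groups, ALB to VTCN1, was highest in well 1.

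Many epicardial, fibroblast and fibrillar collagen genes followed wells 2 and 3, and smooth muscle genes did not. Of 13 smooth muscle genes 0 were variable. Wells 2 and 3 were both above wells 1 and 4 in 2 of them, and the opposite order held in 5. In the list of epicardial and fibroblast genes, 8 of 17 were variable (47.1%), wells 2 and 3 were both above wells 1 and 4 in 13, and the summed level of the 22 genes in the table was 10709, 19164, 16687 and 7725 CPM. Without well 4 the list difference of 0.61 was 0.57, and 1 gene was called. FN1, fibronectin, measured 5206, 10295, 8808 and 3512 CPM (6955 ± 3136, SD, n = 4). FN1 was almost as high in well 3 as in well 2, and its range was 1.55. The fibrillar collagens COL1A1 (1409, 2272, 1983 and 1025 CPM), COL1A2 (1106, 1978, 1747 and 793 CPM) and COL3A1 (1703, 3121, 2730 and 1284 CPM) had that order too. PDGFRB, a growth factor receptor of mural and stromal cells, had a range of 1.28. DCN, decorin, a small matrix proteoglycan, differed in being lowest in well 1, at 13.8, 25.6, 31.5 and 27.1 CPM. The epicardial transcription factors WT1 (0.56) and TBX18 (0.44) and the mesenchymal filament protein VIM (0.36) were not variable, nor was the growth factor receptor PDGFRA (0.40).

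The matrix and matricellular list, which shares FN1, TNC, DCN, LUM and POSTN with the list just described, had 11 of 31 variable genes (35.5%). Its median deviation ran from -0.26 in well 4 to 0.21 in well 2, a difference of 0.47, which was 0.25 without well 4. FBLN1, fibulin-1, a matrix glycoprotein, measured 140, 374, 256 and 86.9 CPM and had the widest range of the list (2.10). MMP2, a protease that cuts denatured collagen, measured 74.2, 173, 118 and 50.9 CPM, SPARC, a collagen-binding matricellular protein, 731, 1405, 1208 and 613 CPM, and BGN, the proteoglycan biglycan, 9.88, 16.0, 11.6 and 3.42 CPM. The smallest ranges of the list were 0.07 for TIMP3, a protease inhibitor held in the matrix, and 0.16 for LAMC1, a laminin chain of basement membranes. Other basement membrane members had ranges of 0.17 (LAMA4), 0.24 (NID1), 0.30 (LAMB1), 0.35 (HSPG2) and 0.43 (NID2). The collagen list shares COL1A1, COL1A2 and COL3A1 with the epicardial and fibroblast list, and COL2A1 and COL9A3 with the cartilage list described later. Among collagens, 6 of 20 were variable (30.0%, against 2.83% of all genes). COL12A1 (1.57) and COL6A3 (1.75) were among them, and the network collagens COL4A1 (0.36) and COL4A2 (0.30) were not. COL4A4, a network collagen outside the list, was variable, with a range of 1.03.

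Sarcomere genes had the opposite order with smaller ranges. Of 29 genes, 0 were variable and wells 1 and 4 were both above wells 2 and 3 in 22, against 21.9% of all genes. The median deviation was 0.09, -0.07, -0.24 and 0.19 in wells 1 to 4, a difference of 0.42, and the list summed to 65821, 56316, 48910 and 68241 CPM. ACTC1, cardiac actin, came nearest to the threshold with a range of 0.99, at 4653, 3966, 2781 and 5516 CPM. MYOM1, myomesin, a protein of the M-band, measured 1208, 941, 809 and 1240 CPM. Well 3 was lowest for ACTC1, MYOM1, TNNT2 and MYH7. TNNI1, the slow skeletal troponin I of fetal heart, had the smallest range of the list (0.18).

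Ratios among sarcomere isoforms, which change as heart muscle matures, had ranges of 0.19 to 0.31 over the wells. The median range of single genes was 0.29 over all genes and 0.21 at a mean of 100 CPM or more, but a ratio between genes is another measure. For MYH7 over MYH6 the log2 ratio was 4.02, 3.90, 3.84 and 3.89 in wells 1 to 4, that of the adult to the fetal troponin I, TNNI3 to TNNI1, was -5.47, -5.58, -5.78 and -5.62, and that of the ventricular to the atrial light chain, MYL2 to MYL7, was -5.22, -5.19, -5.36 and -5.07. Their SDs over the 4 wells were 0.08, 0.13 and 0.12. Calcium handling genes (12 of 17) and cardiac transcription factors (13 of 18) also had wells 1 and 4 above wells 2 and 3, with list differences of 0.25 and 0.18. When the sarcomere genes themselves were used to scale the wells, an alternative chosen after these values were seen, the median of all genes differed between wells by 0.42 and these 2 differences turned to -0.17 and -0.24, so their direction holds relative to all genes and not to the sarcomere.

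Of 11 natriuretic peptide and hypertrophy genes, 2 were variable (18.2%, against 2.83% of all genes). This list shares MYH7, ANKRD1, ACTA1 and XIRP1 with the sarcomere list and NPPA with the atrial list. NPPB, B-type natriuretic peptide, a hormone of strained heart muscle, measured 113, 112, 70.1 and 170 CPM, a range of 1.28. NPPA, the atrial natriuretic peptide, measured 98.0, 129, 92.5 and 191 CPM, a range of 1.04. Both were highest in well 4 and lowest in well 3, and neither was called when well 3 or well 4 was left out or on the sarcomere scale. Relative to TNNT2, the log2 ratio of NPPB was -4.66, -4.52, -5.00 and -4.26 and that of NPPA -4.87, -4.32, -4.60 and -4.09, so well 4 was highest for both peptides on that scale too. SLN, sarcolipin, a regulator of the calcium pump in atrial muscle, was lowest in well 4, at 11.5, 29.2, 18.8 and 5.09 CPM. Of 10 atrial genes 4 were variable (40.0%, against 2.83% of all genes), among them NPPA and SLN, and of 7 ventricular genes 0.

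The 30 variable genes with wells 1 and 4 both above wells 2 and 3 had no common theme that was tested, and 3 of them are named here after their values were seen. In the ion channel and gap junction list 2 of 18 genes were variable (11.1%, against 2.83% of all genes). Of the 3 genes named here only KCNJ3 is in that list, and the list's other variable gene did not have this order. KCNJ3, a potassium channel subunit of the atrial acetylcholine-gated current, measured 7.75, 5.91, 3.80 and 11.7 CPM. KCNH7, another potassium channel, measured 21.4, 7.86, 13.5 and 18.01 CPM, and LMOD3, a leiomodin that nucleates actin filaments in muscle, 6.91, 4.11, 6.74 and 10.5 CPM. KCNJ3 and LMOD3 were highest in well 4 and KCNH7 in well 1.

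The widest ranges of all belonged to genes at low levels. CRABP1, a carrier of retinoic acid, measured 4.33, 12.1, 19.5 and 1.57 CPM, a range of 3.27, and its counting intervals of 95% were 18.01 to 21.2 CPM in well 3 and 1.15 to 2.10 CPM in well 4. PAX6, a transcription factor of eye and neural development, measured 2.51, 12.8, 14.2 and 1.13 CPM, a range of 3.17. MAB21L1, a gene of eye development, measured 1.90, 5.41, 11.7 and 1.95 CPM, and ALDH1A1, which makes retinoic acid, 13.5, 51.0, 68.5 and 14.3 CPM. These 4 genes were all highest in well 3, where most variable genes were highest in well 2. Exons of PAX6 overlap those of ELP4 and exons of MAB21L1 overlap those of NBEA. Of 21 lens and retina genes, 2 passed the level threshold and 4 were at 0 in every Day 30 well. Those that passed were PMEL, a melanosome protein, at 11.3, 27.0, 24.6 and 6.15 CPM, and MITF, a pigment cell transcription factor, which was not variable (0.39).

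The rest of the 12 widest ranges were spread over several functions. MMP9, a matrix protease, measured 1.06, 11.4, 7.86 and 2.80 CPM and was lowest in well 1, and its exons overlap those of SLC12A5-AS1. TCIM, a small regulator of WNT signalling, measured 7.60, 14.2, 10.0 and 1.85 CPM. VTCN1, a surface protein that restrains T cells, measured 31.5, 105, 77.6 and 19.1 CPM, and ITGB6, an epithelial integrin subunit, 34.99, 119, 79.3 and 22.4 CPM. VTCN1 and ITGB6 had nearly the same profile. SSC5D, a secreted scavenger receptor protein, measured 2.17, 11.4, 9.23 and 3.01 CPM.

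At 100 CPM or more, 20 genes were variable. GABRP, a GABA-A receptor subunit found in epithelia, measured 142, 458, 373 and 108 CPM. TGFBI, a matrix protein induced by TGF-beta, measured 266, 820, 585 and 195 CPM (466 ± 290, SD, n = 4). IGFBP3, the main binding protein of insulin-like growth factors, measured 320, 825, 623 and 242 CPM. CD24, a surface glycoprotein of epithelial and progenitor cells, measured 147, 287, 258 and 99.2 CPM, and TNC, the matricellular protein tenascin C, 117, 176, 137 and 67.0 CPM. Each of these was highest in well 2 and lowest in well 4.

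Genes nearest in profile were found by the distance between centred and scaled log2 profiles over the 4 wells, among 333 variable genes, and serve as a description over 4 points only. Nearest to ALB were TF, C3, APOB and FGA. Nearest to TGFBI were IGFBP3, F2RL1, ITIH5 and P2RY2, and nearest to GABRP were ERRFI1, FAM171B, SPNS2 and TFPI2. FBLN1 was closest to TAGLN2, EFNB2, NELL2 and CGN. PAX6 was closest to PDGFRB, PLAU, ADAMTS2 and CLDN1, and CRABP1 to PDIA5, MUC16, COL9A3 and GAS1. The neighbours of MMP9 were SH2D4A, SFN, TNFSF15 and CPM, the gene for carboxypeptidase M, and those of TCIM were SERPINB2, RGS4, BGN and HPN. Of the neighbours of ALB, C3, complement component 3, stands outside the liver and endoderm list, and APOB, FGA and TF are members.

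Lists with few genes at this level follow, beside the 2.83% of all genes that were variable. Endothelial genes had 2 variable of 9 (22.2%). They were ESAM (6.61, 7.76, 5.40 and 2.36 CPM) and CDH5, VE-cadherin (18.7, 21.1, 17.6 and 9.60 CPM), with PECAM1 (0.91) below the threshold. KDR, the main receptor for vascular endothelial growth factor, had a range of 0.20, and of the 22 endothelial genes 1 was at 0 in every well. Their summed level was 246, 257, 241 and 177 CPM. Without well 4 the difference of the endothelial list fell from 0.70 to 0.14. Cartilage genes had 3 of 6, among them SOX9, a transcription factor of cartilage and several epithelia, at 16.8, 31.1, 30.9 and 14.4 CPM, and COL9A2 at 2.81, 9.22, 11.7 and 2.60 CPM. COL2A1, the main cartilage collagen, was not variable (0.40). The cartilage list difference was 0.78, and 0.54 without well 4. Of 10 pluripotency genes 2 passed the level threshold and 0 were variable, and of 20 haematopoietic genes 1 passed.

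The next stress and growth lists had differences of 0.23 to 0.33, smaller than those of the liver and epithelial lists. In the integrated stress response list 3 of 30 genes were variable (10.0%, against 2.83% of all genes). They were PSAT1, an enzyme of serine synthesis, at 11.4, 27.2, 21.2 and 11.9 CPM, SLC7A5, an amino acid transporter, at 66.2, 139, 112 and 59.5 CPM, and the folate enzyme ALDH1L2 (1.09). The regulators ATF4 (0.28), ATF5 (0.10) and DDIT3 (0.46) of the same response were not variable. Wells 2 and 3 were both above wells 1 and 4 in 22 of the 30 genes, against 21.6% of all genes. The unfolded protein response list had 0 variable genes of 20 and a list difference of 0.33, lowest in well 4 and 0.19 without it. For the integrated stress response the list difference of 0.33 was 0.21 without well 2. Mitosis genes, 0 variable of 36, were lowest in well 3 by the median (-0.21), but on the sarcomere scale well 4 was lowest (-0.14), and without well 3 the list difference of 0.29 was 0.06. Examples were the kinesin KIF2C at 34.6, 31.6, 20.7 and 28.2 CPM, the mitotic kinase PLK1 at 36.9, 28.9, 23.6 and 27.6 CPM and MKI67, the Ki-67 antigen, at 82.1, 75.2, 60.2 and 66.6 CPM. DNA replication genes differed by 0.23 and were lowest in well 1, with 0.07 when that well was left out. GINS4, a subunit of the replicative helicase, was also lowest in well 1, at 1.90, 6.67, 6.55 and 7.14 CPM.

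List differences under 0.10 were found for ribosomal proteins (0.08), nuclear-encoded oxidative phosphorylation (0.09), p53 targets (0.06), heat shock proteins (0.04) and WNT pathway genes (0.03), among others. For oxidative phosphorylation, heat shock and WNT pathway genes the sign of the difference turned on the sarcomere scale. The 6 genes of smallest range at 100 CPM or more were ZNF91, ECH1, UBE2D3, ERGIC1, EIF3K and CSNK1D, each with a range of 0.02. UBE2D3, a ubiquitin-conjugating enzyme, measured 280, 282, 284 and 284 CPM. CSNK1D, casein kinase 1 delta, measured 165, 166, 165 and 167 CPM.

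The wells of the later days, which did not enter the choice of these genes, were examined for the same genes. Of the 335 variable genes, 185 had a mean of at least 5 CPM at Day 60, and their median range over the 3 Day 60 wells was 0.53, against 0.29 over all genes with that mean. At Day 113 the count was also 185, and the median range over 4 wells was 1.02 against 0.43. Variable genes are mostly of low level, where ranges are wider, so medians were also taken within classes of level, chosen after these values were seen. At 5 to 10 CPM the medians were 0.51 against 0.49 at Day 60 and 0.94 against 0.62 at Day 113. At 10 to 30 CPM they were 0.58 against 0.34 and 0.98 against 0.49, and at 30 CPM or more 0.54 against 0.24 and 1.17 against 0.38. At Day 60 the medians were nearly equal in the lowest class and apart in the classes above it. PAX6 had a range of 1.33 at Day 60 and 3.67 at Day 113, and FBLN1 had 0.10 and 0.68. Several of the widest genes had low means later, among them VTCN1 (0.65 CPM at Day 60) and AHSG (1.20 CPM), so their ranges there are not compared. A range of at least 1 was found in 263 genes at Day 60 (2.23%) and in 916 at Day 113 (7.71%), where Day 60 has 1 well fewer to set a range.

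**Figure D5:**
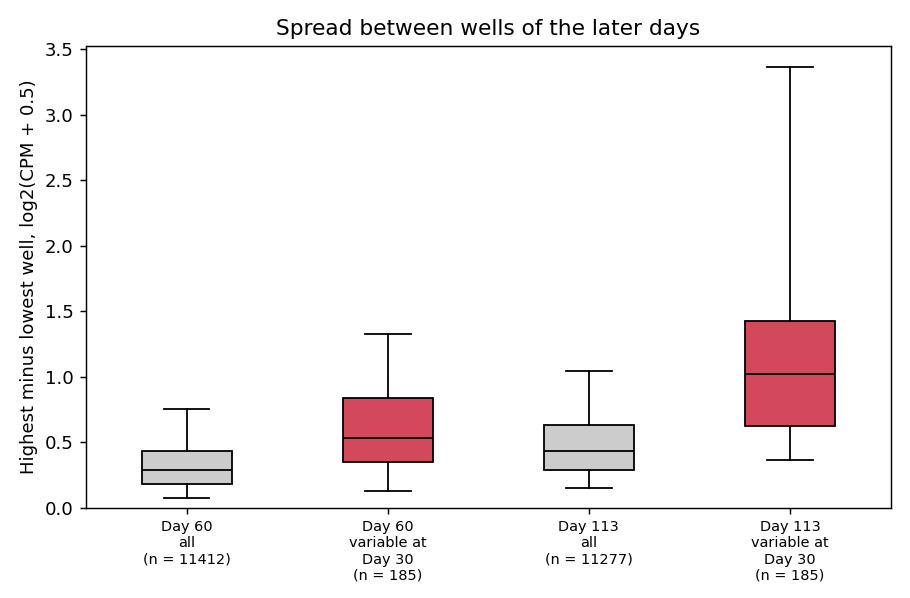
Range between wells at Day 60 and Day 113 (y axis, highest minus lowest well, log2(CPM + 0.5)) for all genes of the Day 30 set and for the genes variable at Day 30, each with a mean of at least 5 CPM on that day. Boxes span the quartiles around the median and whiskers the 5th to 95th percentile, and the medians are 0.29 and 0.53 at Day 60 and 0.43 and 1.02 at Day 113. XIST and Y-linked genes are not drawn.

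Genes that changed later in culture were also read in the Day 30 wells, where their share of variable genes was above the background for genes higher later and near it for genes lower later. Day 113 against Day 60, which shares no library with Day 30, gave 1985 genes higher (9.93% of 19990) and 1631 lower (8.16%) in edgeR's quasi-likelihood test with Benjamini-Hochberg adjustment. Of the higher genes, 1496 were in the Day 30 set and 79 were variable there (5.28%), and of the lower genes 40 of 1398 (2.86%), against 2.83% of all genes. Of the 757 that were at least 2-fold higher at Day 113, 296 were in the Day 30 set and 61 of these were variable there (20.6%), with medians of -0.09, 0.20, 0.09 and -0.17 in wells 1 to 4. Of the 616 that were at least 2-fold lower, 389 were in the Day 30 set and 31 were variable (7.97%), with medians of 0.08, 0.01, -0.05 and -0.05. In these 2-fold subsets both shares were above 2.83%. Variable genes were more frequent at low levels, and the part of expression level in these shares was not tested.

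Base composition and length were read beside these results. For 11392 genes (96.2%) with a match in GENCODE 29, split into 4 groups of equal size, the median deviation of a group differed between wells by at most 0.07 for groups by GC content and by at most 0.04 for groups by length. The part of these differences in the list results was not tested. Counts of each pair of wells differed by 11.7 to 36.1 times the sampling noise per gene (chi-square over degrees of freedom, 6 pairs), so no library was a copy of another. Of the 317 genes chosen for naming, 57 have exons that overlap another gene of the table in GENCODE 29, and their counts are uncertain where the counting did not use strand.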

How the data were processed

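Poly(A) RNA of 4 Day 30 wells was sequenced as paired-end 150-bp reads, per the labels' protocols. The authors deposited whole-number read counts per gene without normalization, for 19990 gene symbols in 11 libraries. STAR 2.5.3a, featureCounts 2.0.3 and the build hg38 are named in the submitters' processing notes, with no role stated, and the annotation and strand setting are not given in the sources used here. The authors also deposited TPM values, which were not used, because the gene lengths they imply did not agree between wells (Spearman rho -0.024 to 0.006 over 6 pairs of wells).

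Counts were scaled by TMM in edgeR 4.0.16 (R 4.3.3) to CPM, and log2(CPM + 0.5) was used for ranges. Counting error was tested with a Poisson likelihood-ratio test over 4 wells, adjusted over 11847 genes, and 95% intervals are exact Poisson intervals that cover counting error only, since the libraries carry no molecular identifiers. A gene was called at a range of at least 1 and an adjusted p of at most 0.05. The 4 wells are 1 group, so no test between groups was made and no correlation over wells is given. Nearest profiles were ranked by distance between scaled profiles, which orders genes as a correlation over the wells would. The Poisson p-values cover counting error only. The SDs, and the p-values of Day 113 against Day 60, cover well replicates of one differentiation. The call was tested on counts simulated with a biological coefficient of variation of 0.05, where the wells had 0.129. It recovered 73% of 2-fold and 100% of 4-fold changes made in 1 well, with 0 other genes called. The simulated spread was smaller than that of the wells, so this does not give the false calls at their spread. Day 113 against Day 60 used edgeR's quasi-likelihood test on 7 libraries.

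Named genes are the 12 of widest range, the 12 of widest range at 100 CPM or more, up to 4 widest and 2 narrowest in each list, the 6 narrowest at 100 CPM or more, and the 4 nearest profiles of 8 of them. Other list members and the ratios were chosen after their values were seen. The members and lists were chosen with earlier results of these data known. Coordinates and promoters are from RefSeq GRCh38.p14, and transcript length, GC content and exon overlaps from GENCODE 29. Alternatives were 3 other scalings, other level thresholds and pseudocounts, and each well left out. XIST and Y-linked genes are not reported.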

Additional observations from a re-analysis of the deposited data

Results flagged for a closer look

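A value is given here when 1 of the 4 wells lay far from the others, so that the gap to its neighbour took more of the whole range than Dixon's 95% critical value for 4 samples allows. Of 198 totals, list medians and genes examined, 8 met this, and chance alone gives about 1 in 20. Over all 11847 genes, 565 did (4.77%).

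GINS4, a subunit of the replicative helicase, was lowest in well 1, with 0.930 of its range below the next well. The glycolysis and lactate transport list had its median lowest in well 3 (0.913), at -0.16 against 0.04, 0.05 and 0.06 in wells 1, 2 and 4, but on the sarcomere scale well 4 was lowest (-0.13) and well 3 stood at 0.08. Well 4 was the low well for PDGFRA (0.894), TM4SF4 (0.871) and PECAM1 (0.834), at 116, 10.2 and 9.94 CPM. HSPG2, a basement membrane proteoglycan, was highest in well 1 (0.877), at 1748 CPM. LAD1 was lowest in well 3 (0.899) and ATF5 highest in well 2 (0.8996), both with small ranges of 0.30 and 0.10.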

How the results depend on the processing

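The count of 335 variable genes was 173 at a mean of at least 10 CPM, 1402 at a mean of at least 1 CPM and 715 on the sarcomere scale, where the matrix list difference was 0.73. Leaving out each well in turn gave 177 to 306 variable genes, 0.42 to 1.43 for the liver and endoderm list, 0.75 to 1.22 for the epithelial list, 0.55 to 0.63 for the epicardial and fibroblast list, 0.25 to 0.46 for the matrix list and 0.29 to 0.44 for the sarcomere list. The lowest values for the variable genes, the liver, the epithelial and the matrix lists came without well 4. The cause was not tested, beyond the smaller number of wells. The biological coefficient of variation of 0.129 was 0.115 and 0.165 at those level thresholds, 0.104 with DESeq2 dispersions and 0.118 to 0.135 with a well left out. The 10039 genes beyond counting error became 8622 to 8797 with 3 wells. Of 100 named genes called variable, 64 lost the call when some well was left out and 17 under another scaling or pseudocount.

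For Day 113 against Day 60, 3616 genes passed, and 1893 (without Day 60 well 1) to 3701 with a well left out, with 2219 without Day 60 well 3. With the replicate number as a block (replicate block) 3534 passed. Wells of equal number correlated by 0.17, 0.28 and 0.01, and Day 60 well 3 correlated best with Day 113 well 4 (0.21), so the numbers were not read as pairs. The Day 30 wells form 1 group and admit no block. On the sarcomere scale 15 of 45 lists changed the sign of their difference, among them calcium handling, cardiac transcription factors, atrial and ventricular genes, and glycolysis. Counting intervals are widest near 5 CPM.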
